A study of Mus musculus with 12 samples.

Results

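Meningeal fibroblast genes were followed in the frontal cortex through 10 genes taken by name: Aldh1a2, Myoc, Slc6a13, Slc22a6, Fmod, Ogn, Dcn, Lum, Ptgds and Adamts2. These genes and the gene lists used below were chosen with earlier results of these data known. Their counts beside the share of all tested models are therefore descriptions and not tests. All 10 were found in each of the 3 deposited comparison tables and all 10 were tested there, among 18417, 18430 and 18429 tested gene models for GluN1 against WT, GluN1Cre against GluN1 and GluN1Cre against WT. The samples were 12 male C57Bl/6 and 129/SvlmJ F1 hybrid mice aged 14 weeks, 4 in each of the groups WT, GluN1 (knockdown of Grin1, the obligatory NMDA receptor subunit) and GluN1Cre (the knockdown with Cre rescue). Every mouse of all 3 groups, WT included, was given tamoxifen starting at an age of 10 weeks (a 6 mg gavage followed by chow holding about 14 mg, over 2 weeks), so tamoxifen exposure is shared and no group without it was measured. By the group names GluN1Cre alone carried Cre, and the Cre driver and the design of the Grin1 allele are not given in the sources used here. Effects of Cre and of restored Grin1 therefore cannot be told apart.

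The meninges are connective tissue sheets around the brain, and their inner layers, pia and arachnoid, hold fibroblasts that follow large vessels into the cortex. These cells build a collagen matrix, make retinoic acid and carry transporters of the barrier between blood, cerebrospinal fluid and brain. Aldh1a2 makes retinoic acid from retinaldehyde. Slc6a13 (the GABA and taurine transporter GAT2) and Slc22a6 (the organic anion transporter OAT1) are barrier transporters. Dcn (decorin), Lum (lumican), Fmod (fibromodulin) and Ogn (osteoglycin) are small leucine-rich proteins that bind collagen or the matrix around it, and Adamts2 removes the amino-terminal propeptide of procollagen. Ptgds makes prostaglandin D2 and is an abundant secreted protein of cerebrospinal fluid, also made by oligodendrocytes and choroid plexus. Myoc (myocilin) is a secreted glycoprotein best known from the eye, and in the brain astrocytes of the surface also express it.

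Each table holds 1 FPKM value per group (fragments corrected for the length of the transcript and the size of the library), estimated by the authors over the 4 libraries of the group, so read depth and the spread between mice are unknown here. A group appears in 2 tables that were assembled and normalised separately. For 9 genes the levels of a group in both tables differed by at most 3.93%; for Ogn they differed by 8.44% in WT and 15.7% in GluN1Cre. A model was called changed at p under 0.05 and q under 0.10 in the authors' deposited table, the threshold of the series' design text. Calls by Cuffdiff below refer to this threshold and not to the authors' own significance flag. Grin1 itself was at 138 FPKM in WT, 56.7 to 65.7 FPKM in GluN1 and 78.0 to 86.7 FPKM in GluN1Cre, in the order the labels imply. Cortical neuron markers summed to 1992 to 2112 FPKM in every group, with 2 of 11 models called higher and 1 lower in GluN1 against WT and none of 11 and 10 called by Cuffdiff in the other comparisons (2 and 0 at an unadjusted p under 0.05). In bulk tissue, fewer cells of a type and less RNA per cell cannot be told apart.

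Ptgds stood far above the rest, at 670 and 678 FPKM in WT. The second highest level was that of Fmod, at 9.87 and 9.81 FPKM in WT, so that Ptgds was 68.5 times as high on the length-scaled FPKM. Ogn, Slc6a13 and Dcn followed at 4.04 to 4.93 FPKM in WT, and the Ogn values of 4.55 and 4.93 FPKM lay on both sides of those of Slc6a13. Aldh1a2 (2.85 and 2.83 FPKM), Myoc (2.49 and 2.47 FPKM), Slc22a6 (2.06 and 2.04 FPKM) and Adamts2 (2.03 and 2.04 FPKM) came next in WT, and Lum was lowest at 1.08 and 1.06 FPKM. Slc22a6 and Adamts2 were not separable in WT. That order was not kept in the other groups: Myoc was the lowest of the 10 in GluN1 at 0.961 and 0.963 FPKM, and Adamts2 lay above Aldh1a2 in GluN1Cre at 4.12 and 4.13 FPKM. The plot of levels by group shows these shifts.

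**Figure D1:**
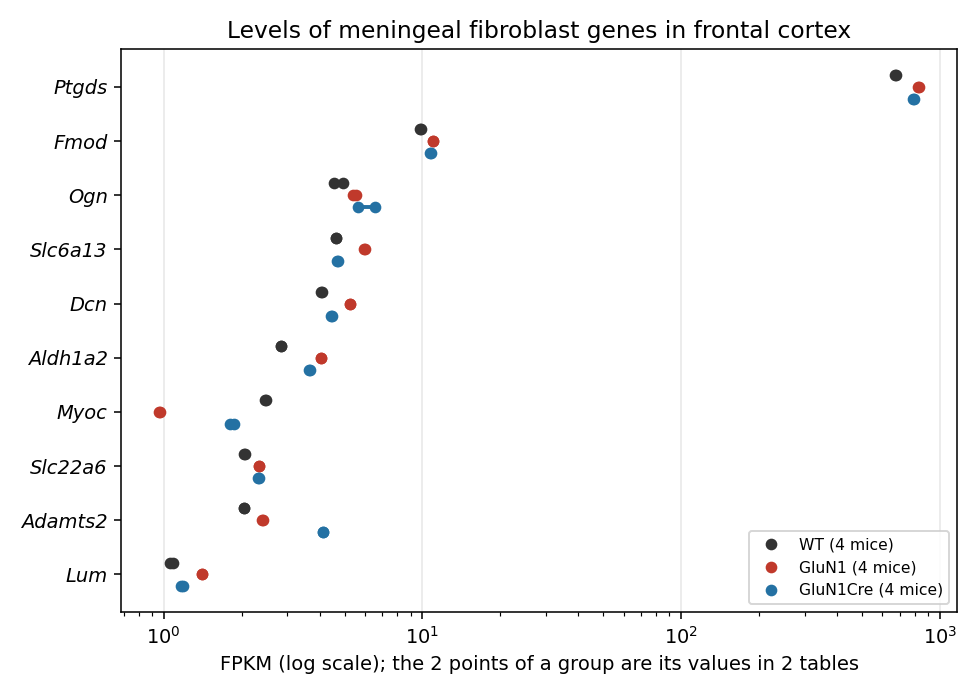
FPKM (log scale) of the 10 genes in WT, GluN1 and GluN1Cre, each group estimated over 4 mice; the 2 points of a group are its values in 2 tables. Ptgds lies between 670 and 829 FPKM and the other 9 genes below 11 FPKM, with Myoc low in GluN1 and Adamts2 high in GluN1Cre.

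The start regions of 3 genes are printed because they had the largest called changes of the 10 genes: Myoc, Adamts2 and Aldh1a2. They are the 250 bases before the transcription start from RefSeq (build GRCm38.p6), and 8 of the 10 genes matched that table. Capitals mark matches, on either strand, to 5 short strings. The TATA box was searched as TATAAA, and the GC box was searched as GGGCGG. The forkhead string was TGTTTAC, the nuclear receptor half-site was AGGTCA and the glucocorticoid half-site was AGAACA. Aldh1a2 is printed without capitals because none of the strings occurs in it. All 3 lie on the plus strand, Myoc at chr1:162638900-162639149, Aldh1a2 at chr9:71215539-71215788 and Adamts2 at chr11:50601835-50602084. The authors' models of Adamts2 (from 50601752 in both comparisons with GluN1Cre) and Aldh1a2 (from 71215494 in both comparisons against WT) begin before these windows. In those comparisons the printed bases lie within the span of the model.
Myoc: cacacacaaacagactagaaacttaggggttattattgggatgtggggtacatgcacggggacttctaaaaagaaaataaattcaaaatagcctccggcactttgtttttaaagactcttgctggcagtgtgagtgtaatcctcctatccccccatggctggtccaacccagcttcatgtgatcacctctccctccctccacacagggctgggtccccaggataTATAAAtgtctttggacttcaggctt
Aldh1a2: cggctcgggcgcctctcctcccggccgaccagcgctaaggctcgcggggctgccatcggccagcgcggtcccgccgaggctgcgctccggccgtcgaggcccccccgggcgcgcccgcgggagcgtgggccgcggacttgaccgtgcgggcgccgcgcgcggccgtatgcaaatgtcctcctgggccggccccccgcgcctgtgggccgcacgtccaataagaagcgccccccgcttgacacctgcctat
Adamts2: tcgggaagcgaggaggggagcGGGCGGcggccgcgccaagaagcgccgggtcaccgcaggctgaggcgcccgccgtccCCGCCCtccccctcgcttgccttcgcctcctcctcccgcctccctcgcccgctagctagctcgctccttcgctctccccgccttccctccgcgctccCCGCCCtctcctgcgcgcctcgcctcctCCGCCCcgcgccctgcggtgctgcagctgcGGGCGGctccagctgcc

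The 3 regions differ in base composition. Myoc has 46.8% G and C with 2 CpG pairs and a TATAAA that begins 26 bases before the start. Aldh1a2 has 77.6% with 40 CpG pairs and Adamts2 78.0% with 34, against medians of 52.4% and 6 over 32851 start regions of the same length. Adamts2 holds 5 GC-box matches. Of the 8 matched genes, 2 hold TATAAA (Myoc and Ogn, where the matches on both strands overlap) and 2 hold GGGCGG (Adamts2 and Slc6a13), against 12.4% and 32.7% of all start regions. None of the 8 holds the forkhead, nuclear receptor or glucocorticoid string, which occur in 3.17%, 14.0% and 16.1% of all start regions. These matches describe letters in the window and name no bound factor.

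In the GluN1 cortex against WT, Aldh1a2, Slc6a13 and Ptgds rose, and Myoc fell to 0.386 times its WT level. Of the 10 genes 3 rose, 1 fell and 6 were not called, where 2.52% of all 18417 tested models were called (1.66% higher and 0.858% lower). In all, 9 of the 10 folds were above 0, as were 48.8% of all tested models. The median log2 fold of the 10 was 0.27, and that of all tested models was -0.00. At an unadjusted p under 0.05, 7 of the 10 passed against 7.91% of all tested models (6 higher against 4.75%), and at q under 0.05 3 of the 10 against 1.94%.

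Aldh1a2 went from 2.85 FPKM in WT to 4.07 FPKM in GluN1, 1.43 times the WT level (log2 fold 0.52, with q = 0.00456 in the authors' deposited table). It lies on the plus strand of chromosome 9 from 71215789 to 71296243 (ENSMUSG00000013584.5 in GENCODE M21, GRCm38). Of the tested models that averaged 1 FPKM or more, 1.29% had a higher fold. Among 2362 tested models within 1.5 times of its level, 2.92% were called and the smallest called log2 fold was 0.28 in size.

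Slc6a13 went from 4.62 to 5.97 FPKM (log2 fold 0.37, with q = 0.0900 in the authors' deposited table). It passed the threshold of the series' design text and would not pass at q under 0.05. The authors' own significance flag for Slc6a13 in this comparison was no. The gene lies on the plus strand of chromosome 6 from 121300227 to 121337733 (ENSMUSG00000030108.14). The other transporter, Slc22a6 on chromosome 19, had 2.06 and 2.34 FPKM and was not called (log2 fold 0.19, with q = 0.945 in the authors' deposited table).

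Ptgds went from 670 to 825 FPKM (log2 fold 0.30, with q = 0.00456 in the authors' deposited table). At this level few models can be compared with it: 44 lay within 1.5 times, and 2 of them were called, Ptgds among them. The gene lies on the minus strand of chromosome 2 from 25466709 to 25470046 (ENSMUSG00000015090.13), 148 kb from Grin1, the targeted gene, so it shares the chromosome region of the altered allele. The part of that nearness in the Ptgds values was not tested. Oligodendrocytes also make Ptgds, and their 10 markers summed to 1194 FPKM in WT and 1206 FPKM in GluN1, with 0 of 12 models called by Cuffdiff and 0 at an unadjusted p under 0.05.

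Myoc went from 2.49 FPKM in WT to 0.961 FPKM in GluN1, a log2 fold of -1.37 (q = 0.00456 in the authors' deposited table). It was the member with the largest change in size and the 1 with a negative fold; 0.0431% of tested models that averaged 1 FPKM or more had a lower one. The gene lies on the plus strand of chromosome 1 from 162639155 to 162649693 (ENSMUSG00000026697.10). The authors' model runs on to 162658219, across Myocos, a gene on the opposite strand from 162647193. Whether the counting used strand is not given in the sources used here. The separate model that the tables list at this locus, 7420461P10Rik, an older name of Myocos, was at 0.0107 FPKM in WT and 0.0116 FPKM in GluN1. Astrocyte markers had folds above 0 in 10 of 10 models in the same comparison (2 called, both higher), with a median log2 fold of 0.15. Gfap rose from 34.6 to 54.0 FPKM. What astrocytes gave to the Myoc values was not tested.

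The matrix genes had positive folds and were not called, although those of Lum and Dcn were above the fold of Ptgds. Dcn had 4.10 FPKM in WT and 5.25 FPKM in GluN1 (log2 fold 0.36, with p = 0.0038 and q = 0.135 in the authors' deposited table), just outside the threshold, whose largest called p in this table was 0.0025. Lum had 1.08 and 1.41 FPKM (log2 fold 0.38, with q = 0.539 in the authors' deposited table); among models of its level the smallest called log2 fold was 0.36 in size. Dcn and Lum are neighbours on the plus strand of chromosome 10, 47.0 kb apart. Adamts2 had 2.03 and 2.41 FPKM (log2 fold 0.25, with p = 0.045 and q = 0.597 in the authors' deposited table). Fmod had 9.87 and 10.9 FPKM (log2 fold 0.15) and Ogn 4.55 and 5.39 FPKM (log2 fold 0.24).

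Ogn is reported as uncertain. Its model shares a locus of 232750 bases on chromosome 13 with Aspn, Cenpp, Ecm2, Ippk and Omd, and the tables with GluN1Cre merge Ogn and Omd (osteomodulin, a related matrix protein) into 1 model. In the table of GluN1 against WT, Omd has a model of its own at 0.603 and 0.871 FPKM.

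**Figure D2:**
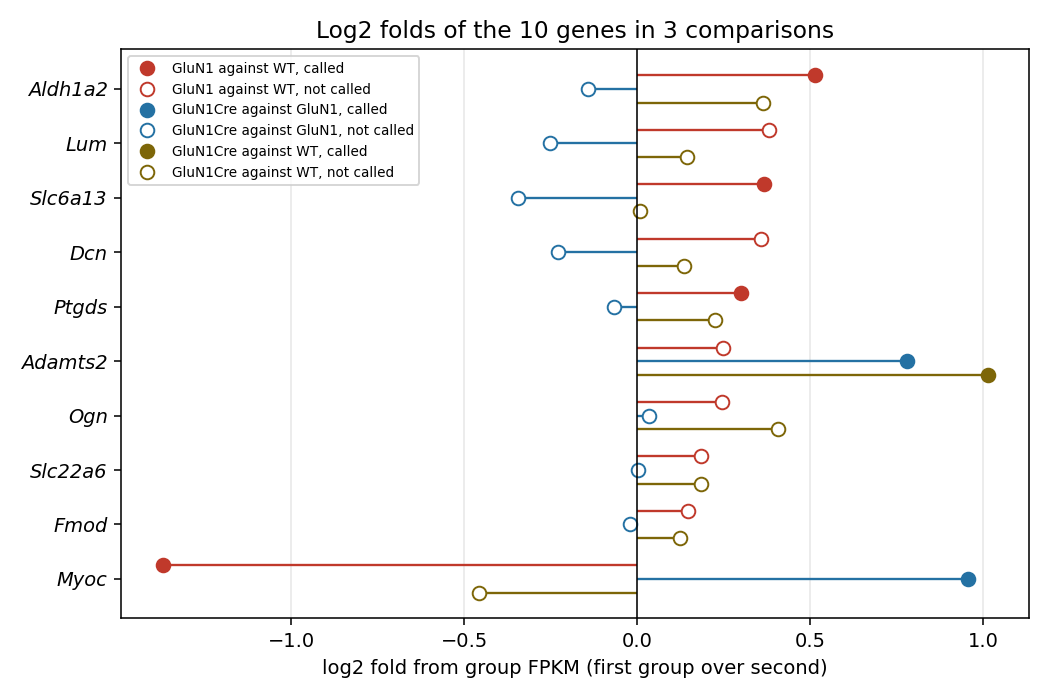
Log2 folds of the 10 genes from the group FPKM (horizontal axis), with 3 comparisons per gene in different colours; filled points passed p under 0.05 and q under 0.10 in the authors' deposited table. In GluN1 against WT 9 genes lie right of 0 and Myoc lies at -1.37; Adamts2 and Myoc are the genes called higher in GluN1Cre against GluN1.

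Other genes of meningeal and perivascular fibroblasts, a list of 46 with 47 tested models, also had mostly positive folds (35 of 47). Of these 8 rose, 0 fell and 39 were not called in GluN1 against WT, 17.0% called against 2.52% of all tested models, with a median log2 fold of 0.24. Spp1 (osteopontin, a matrix phosphoprotein) rose from 4.20 to 8.17 FPKM. Slc22a2, an organic cation transporter, rose from 0.644 to 1.19 FPKM, and Islr, which encodes an immunoglobulin-domain protein of fibroblasts, from 9.69 to 14.6 FPKM. Igfbp2, a carrier of insulin-like growth factors, rose from 32.1 to 41.7 FPKM. Others called were the collagen chains Col1a1 (log2 fold 0.47) and Col3a1 (0.62), Bgn (biglycan, 0.42) and the dicarboxylate transporter Slc13a3 (0.36). The list was made by gene name with earlier results of these data known, so its share called is a description and not a test. Which cells of the bulk tissue gave these values was not tested.

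The lists around each member's role are shorter, and some genes are on more than one. In procollagen processing 4 of 21 models rose (19.0%), 0 fell and 17 were not called (median log2 fold 0.17): Col1a1, Col3a1, Plod1, a lysyl hydroxylase (0.33), and Loxl1, a collagen cross-linking oxidase (0.55). Of the 8 other small leucine-rich protein models Bgn was the 1 that rose and 7 were not called (12.5% called, median 0.20). In the retinoic acid pathway 2 of 16 rose (12.5%) and 14 were not called (median -0.00): Cyp26b1, which degrades retinoic acid, went from 2.95 to 3.97 FPKM, and Dhrs3, which reduces retinaldehyde, from 7.01 to 9.35 FPKM. Aldh1a1 (13.2 and 13.5 FPKM) and Aldh1a3 (0.325 and 0.253 FPKM), relatives of Aldh1a2 named after their values were seen, were not called. In the list of barrier transporters 3 of 17 models rose (17.6%) and 14 were not called (median 0.17). The 3 were Slc22a2, Slc13a3 and Slc6a11, the GABA transporter GAT3 (0.39). Astrocyte markers also had positive folds (10 of 10 models), and the cells behind the Slc6a11 values were not tested. In the prostaglandin pathway 0 of 15 models were called by Cuffdiff and 2 had an unadjusted p under 0.05, 1 in each direction (median 0.02).

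Markers of other cells moved in the same libraries, and their part in the fibroblast values was not tested. The 10 olfactory bulb markers summed to 64.2 FPKM in WT and 144 FPKM in GluN1, with 10 of 11 models higher, and the 9 striatal markers to 193 and 167 FPKM, with 5 of 10 models lower. Among cells of vessels and meninges, the 10 endothelial markers summed to 90.4 and 104 FPKM (0 of 11 models called, 3 at an unadjusted p under 0.05), and the 10 mural cell markers to 63.3 and 74.3 FPKM (1 of 9 called, Vtn, higher). The 8 macrophage markers summed to 9.16 and 11.1 FPKM (0 of 9 called, 5 at an unadjusted p under 0.05). Red blood cell genes, in 5 models, summed to 99.7 and 115 FPKM (1 called, higher). Folds were above 0 in 10 of 11 endothelial, 9 of 9 mural cell, 7 of 9 macrophage and 5 of 5 red blood cell models. Their median log2 folds were 0.15, 0.20, 0.31 and 0.19. Choroid plexus is near 0 here: its 10 markers summed to 3.63 and 5.04 FPKM, 7 of them had a mean under 0.5 FPKM, Ttr lay at 0.0807 and 0.125 FPKM, and the 1 of 4 tested models called was Aqp1 (0.825 to 2.22 FPKM). Without Ptgds, the 9 remaining genes summed to 33.6 FPKM in WT and 38.7 FPKM in GluN1.

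**Figure D3:**
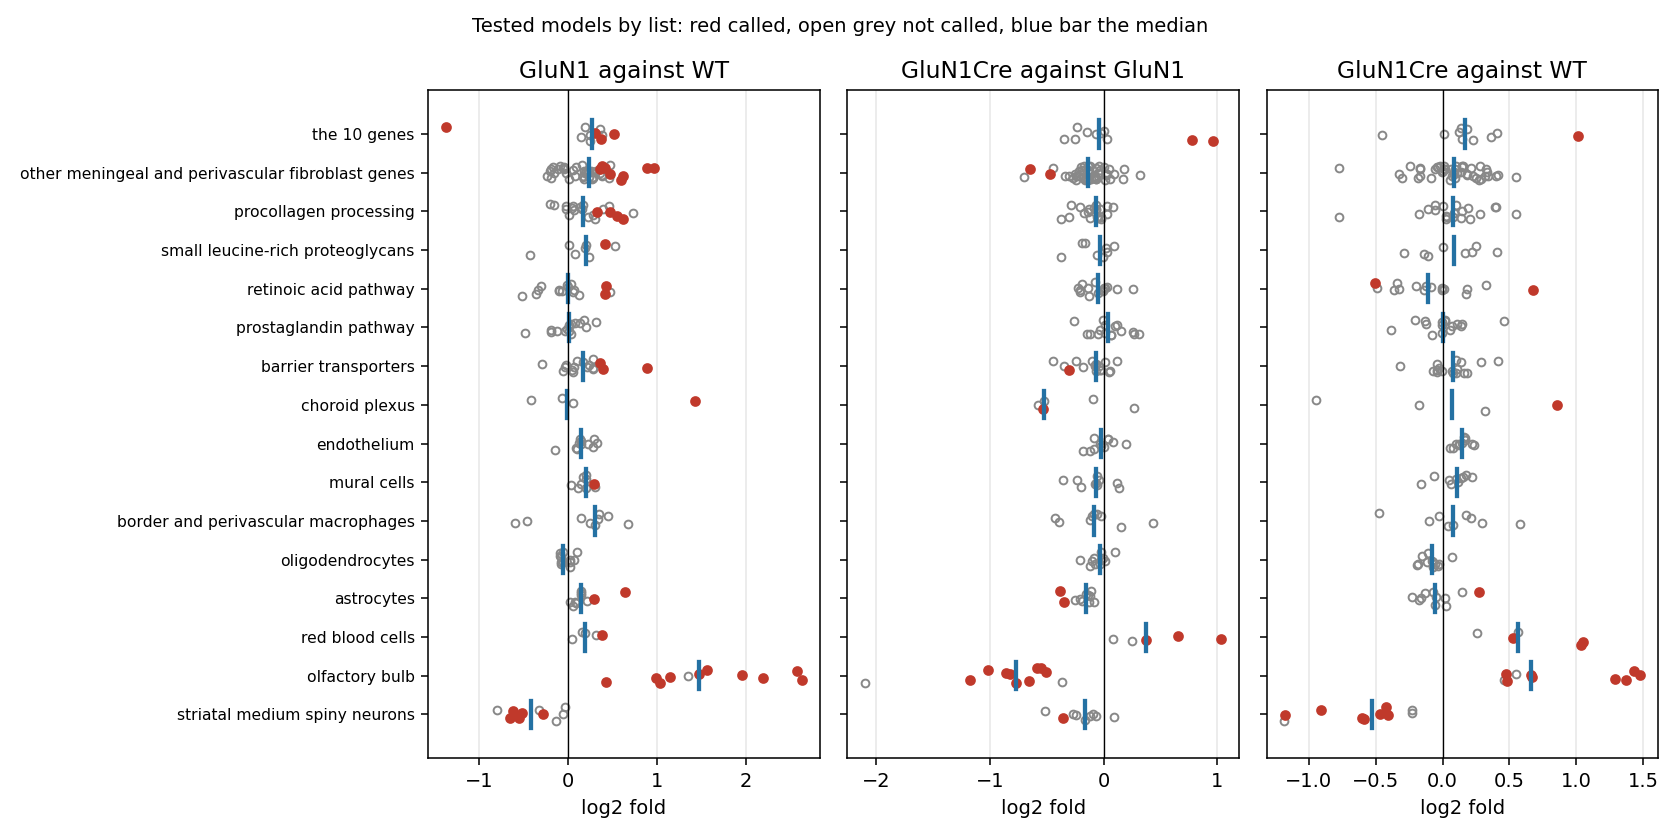
Log2 folds (horizontal axis) of all tested models of the 10 genes and of 15 lists, by comparison; red points were called, open grey points were not, and the blue bar is the list's median. In GluN1 against WT the medians of the 10 genes (0.27) and of the other fibroblast genes (0.24) lie above 0, and olfactory bulb and striatal markers lie further out on either side. The medians of macrophage (0.31), mural cell (0.20), red blood cell (0.19), endothelial (0.15) and astrocyte markers (0.15) also lie above 0. That of oligodendrocyte markers (-0.06) lies below. The row of small leucine-rich proteoglycans holds the merged model of Ogn and Omd in the comparisons with GluN1Cre.

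Between GluN1Cre and GluN1 the genes called were Myoc and Adamts2, both higher in GluN1Cre. Of the 10 genes 2 rose, 0 fell and 8 were not called, where 0.689% of the 18430 tested models were called (0.13% higher and 0.559% lower). Folds were above 0 for 4 genes and below 0 for 6, and the median log2 fold was -0.04 against -0.01 for all tested models. At an unadjusted p under 0.05, 4 of the 10 passed against 4.19% of all tested models.

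Myoc rose from 0.963 FPKM in GluN1 to 1.87 FPKM in GluN1Cre, 1.94 times (log2 fold 0.96, with q = 0.0118 in the authors' deposited table). Only 0.108% of tested models that averaged 1 FPKM or more had a higher fold. Astrocyte markers had negative folds in 11 of 11 models (2 called, both lower), with a median log2 fold of -0.16. Gfap fell from 54.1 to 42.4 FPKM. What astrocytes gave to the Myoc values was again not tested.

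Adamts2 rose from 2.41 FPKM in GluN1 to 4.13 FPKM in GluN1Cre, 1.72 times (log2 fold 0.78, with q = 0.0118 in the authors' deposited table). It lies on the plus strand of chromosome 11 from 50602084 to 50807573 (ENSMUSG00000036545.8). The genes that act with it on procollagen did not share this rise: 0 of 20 procollagen processing models were called by Cuffdiff, 1 had an unadjusted p under 0.05, lower, and 17 had folds below 0 (median log2 fold -0.07). Col1a1 had 2.38 and 2.12 FPKM and Col3a1 0.745 and 0.713 FPKM, neither called. Which cells of the bulk tissue gave the rise of Adamts2 was not tested.

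The genes called higher in GluN1 had lower or near-equal values in GluN1Cre, none of them called. Slc6a13 had 5.96 FPKM in GluN1 and 4.70 FPKM in GluN1Cre (log2 fold -0.34, with p = 0.00295 and q = 0.288 in the authors' deposited table). Aldh1a2 had 4.06 and 3.68 FPKM (log2 fold -0.14, with p = 0.236 in the authors' deposited table) and Ptgds 829 and 791 FPKM (log2 fold -0.07). These comparisons share the GluN1 libraries with those against WT, so opposite signs are not independent of each other.

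Dcn had 5.25 and 4.47 FPKM (log2 fold -0.23) and Lum 1.41 and 1.18 FPKM (log2 fold -0.25). Fmod had 10.96 and 10.80 FPKM (log2 fold -0.02), and Slc22a6 had 2.34 FPKM in both groups (log2 fold 0.00). The merged model of Ogn and Omd had 5.52 and 5.66 FPKM (log2 fold 0.03). Slc22a6, Fmod and the merged model thus lay within 3% of their GluN1 level.

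Of the 47 models of other fibroblast genes 0 rose, 2 fell and 45 were not called (4.26% called against 0.689% of all), with 37 folds below 0 and a median log2 fold of -0.14. The genes that fell were Spp1, from 8.15 to 5.21 FPKM, and Itih2, a hyaluronan-binding protein gene, from 1.72 to 1.24 FPKM. In the list of barrier transporters Slc6a11 fell from 58.5 to 47.2 FPKM as the 1 of 17 models called (median -0.07). Astrocyte markers had negative folds in 11 of 11 models, and the cells behind the Slc6a11 values were again not tested. No model of the other small leucine-rich proteins (7, without the merged model of Ogn and Omd), the retinoic acid pathway (15) or the prostaglandin pathway (16) was called by Cuffdiff, and 0, 1 and 0 had an unadjusted p under 0.05. Their medians were -0.06, -0.05 and 0.04.

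Olfactory bulb markers summed to 143 FPKM in GluN1 and 91.2 FPKM in GluN1Cre, with 9 of 11 models lower, and red blood cell genes to 115 and 165 FPKM, with 3 of 5 models higher. Striatal markers summed to 172 and 151 FPKM (1 of 9 lower, Penk) and the choroid plexus list to 5.02 and 4.25 FPKM (1 of 5 lower, Aqp1). Endothelial, mural cell, macrophage and oligodendrocyte markers had 0 calls by Cuffdiff and 0, 1, 1 and 1 models at an unadjusted p under 0.05. In that order their median log2 folds were -0.02, -0.07, -0.09 and -0.03. The part of these shifts in the fibroblast values was not tested. Without Ptgds, the 9 remaining genes summed to 38.9 FPKM in GluN1 and 38.8 FPKM in GluN1Cre.

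Against WT, the GluN1Cre cortex had 1 called gene of the 10, Adamts2, which was higher. In total 1 rose, 0 fell and 9 were not called, where 0.841% of the 18429 tested models were called (0.364% higher and 0.478% lower). Folds were above 0 for 9 genes and below 0 for Myoc, with a median log2 fold of 0.16 against -0.01 for all tested models. At q under 0.05 the count was also 1 of 10, against 0.662%, and at an unadjusted p under 0.05 it was 4 against 4.32% (3 higher against 1.82%).

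Adamts2 went from 2.04 FPKM in WT to 4.12 FPKM in GluN1Cre, 2.02 times (log2 fold 1.01, with q = 0.0098 in the authors' deposited table). Of the tested models that averaged 1 FPKM or more, 0.116% had a higher fold. Among 2243 tested models within 1.5 times of its level, 1.34% were called. Over the 3 groups its level was thus 2.03 to 2.04 FPKM in WT, 2.41 FPKM in GluN1 and 4.12 to 4.13 FPKM in GluN1Cre. Both calls of Adamts2 rest on the same 4 GluN1Cre libraries, so they are not independent of each other.

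Myoc had 2.47 FPKM in WT and 1.80 FPKM in GluN1Cre (log2 fold -0.46, with p = 0.0034 and q = 0.26 in the authors' deposited table) and was not called. Aldh1a2 had 2.83 and 3.64 FPKM (log2 fold 0.36, with p = 0.00785 and q = 0.471 in the authors' deposited table) and Ptgds 678 and 792 FPKM (log2 fold 0.22, with p = 0.00285 and q = 0.228 in the authors' deposited table). Slc6a13 had 4.64 and 4.67 FPKM (log2 fold 0.01, with p = 0.945 in the authors' deposited table). Its GluN1Cre level was thus within 1% of WT, while Aldh1a2 and Ptgds stood between the WT and GluN1 values.

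The matrix genes other than Adamts2 had positive folds and were not called. Dcn had 4.04 and 4.43 FPKM (log2 fold 0.14), Lum 1.06 and 1.17 FPKM (0.14) and Fmod 9.81 and 10.7 FPKM (0.12). The merged model of Ogn and Omd had 4.93 and 6.55 FPKM (log2 fold 0.41, with p = 0.0611 in the authors' deposited table). Slc22a6 had 2.04 and 2.32 FPKM (log2 fold 0.18).

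**Figure D4:**
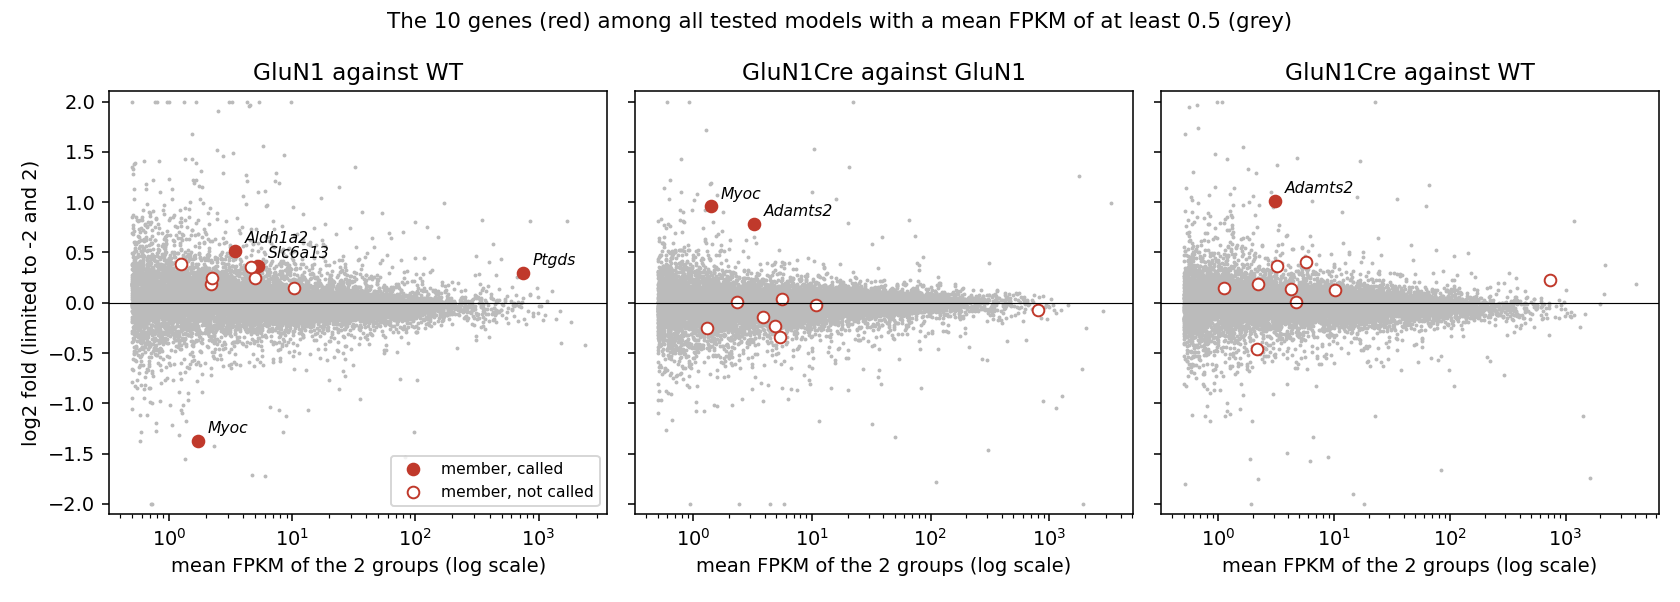
Log2 fold (vertical axis, limited to -2 and 2) against the mean FPKM of both groups (log scale) for tested models averaging 0.5 FPKM or more (grey) and the 10 genes (red, filled where called) in 3 comparisons. Called genes are named: Aldh1a2, Slc6a13, Ptgds and Myoc in GluN1 against WT, Myoc and Adamts2 in GluN1Cre against GluN1, and Adamts2 in GluN1Cre against WT.

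Of the 46 models of other fibroblast genes tested between GluN1Cre and WT, 0 were called by Cuffdiff and 11 had an unadjusted p under 0.05, 8 higher and 3 lower, with a median log2 fold of 0.09. Col3a1 had 0.483 and 0.704 FPKM (log2 fold 0.55, with q = 0.131 in the authors' deposited table) and Islr 9.74 and 12.3 FPKM (log2 fold 0.34, with q = 0.165 in the authors' deposited table). Procollagen processing had 0 calls by Cuffdiff in 20 models and 4 at an unadjusted p under 0.05, all higher (median 0.08). The other small leucine-rich proteins (7 models, without the merged model of Ogn and Omd), the prostaglandin pathway (16) and the barrier transporters (17) had 0 calls by Cuffdiff and 1 model each at an unadjusted p under 0.05; their medians were 0.00, 0.01 and 0.08.

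In the retinoic acid pathway 1 of 16 models rose and 1 fell (median log2 fold -0.11). Cyp26b1 went from 2.99 to 4.78 FPKM (log2 fold 0.68) and 1 of 2 models of Rarb, a retinoic acid receptor, from 4.21 to 2.97 FPKM (log2 fold -0.51), each with q = 0.0098 in the authors' deposited table. The WT level of Rarb was 3.06 FPKM in the table of GluN1 against WT, so its level depends on the assembly. For Cyp26b1 the GluN1 level was 3.97 FPKM, between those of WT and GluN1Cre. Olfactory bulb markers summed to 47.1 FPKM in WT and 74.5 FPKM in GluN1Cre (8 of 10 models higher), striatal markers to 198 and 149 FPKM (7 of 10 lower) and red blood cell genes to 99.7 and 163 FPKM (3 of 5 higher). For the same groups the olfactory bulb sums were 64.2 FPKM (WT) and 91.2 FPKM (GluN1Cre) in the other comparisons. The WT sum of the endothelial list was 90.4 FPKM in the comparison with GluN1 and 106 FPKM in that with GluN1Cre. Sums of the olfactory bulb and endothelial lists therefore cannot be compared across comparisons. Endothelial, mural cell, macrophage and oligodendrocyte markers again had 0 calls by Cuffdiff, with 2, 2, 1 and 1 models at an unadjusted p under 0.05. Folds were above 0 in 11 of 11, 8 of 10, 6 of 9 and 1 of 12 of these models. Their median log2 folds were 0.14, 0.11, 0.07 and -0.08. Of 11 astrocyte models 1 was called, Gfap, higher (34.6 to 41.9 FPKM), and 7 had folds below 0 (median log2 fold -0.06; Myoc had -0.46). The choroid plexus list summed to 3.63 and 4.21 FPKM, and 1 of 4 models was called, Aqp1, higher (0.839 to 1.52 FPKM). The part of these shifts in the fibroblast values was not tested.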

How the data were processed

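RNA of the frontal cortex was sequenced after poly(A) selection, per the labels' protocols, in 12 mice, 4 per group. Per the submitters' processing notes, the authors used Cuffdiff 2.2.1.3 and Cufflinks 2.2.1.0, TopHat and TopHat2 2.1.0 as aligners, and FastQC 0.65, with the build written both as GRCm38 and as mm10; the series' design text places the processing on Galaxy. The authors deposited 3 Cuffdiff tables with 1 FPKM per group. The p-values and q-values are the authors' own, per the file headers; Benjamini-Hochberg values recomputed over tested models differed from the deposited q by at most 5.14e-07. The deposited labels NR1 and NR1Cre in the tables are the GluN1 and GluN1Cre groups.

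Log2 folds were recomputed from the group FPKM without a pseudocount (Python 3.11.15, pandas 2.3.3). The fold and adjustment steps were tested on simulated data. No test over mice was possible, since the tables hold no values per mouse; the p-values are those of Cuffdiff. The labels do not say whether the mice of a group were littermates. Members were found by symbol, including comma-separated symbols, and list genes also by older symbols (6 matched that way). The 10 genes, the lists and the naming rule (all 10 genes, counts per list and up to 4 called genes each by smallest q, further called genes of the fibroblast and transporter lists after their values were seen) were chosen with earlier results of these data known. Motifs were chosen after the tables were read. Annotation was GENCODE M21 (GRCm38), and start regions were RefSeq's.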

Additional observations from a re-analysis of the deposited data

How the results depend on the processing

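No paired analysis was possible because the tables hold 1 value per group and none per mouse; for the same reason no mouse could be left out and depth gives no interval. At an unadjusted p under 0.05 in place of the deposited q, 7 genes in place of 4 passed for GluN1 against WT (7.91% of all tested models), 4 in place of 2 for GluN1Cre against GluN1 (4.19%) and 4 in place of 1 for GluN1Cre against WT (4.32%). The other 12 counts, under q below 0.05, q re-adjusted over models averaging 1 FPKM or more, that level as a filter, and without Ptgds and Ogn (chosen after seeing the data), stayed within 1.5 times. All 21 medians kept their sign and moved by at most 0.1 on the log2 scale under pseudocounts of 0.1 and 1 FPKM, centred folds, the level filter, folds from the other 2 tables, and without Ptgds or (chosen after seeing the data) Myoc. The level filter left out none of the genes, so it could change neither their counts nor their medians. Of 180 settings for single genes 178 changed neither sign nor call, but much of that count was fixed beforehand. Settings that altered folds kept the deposited calls, and those that altered q kept the main folds. A pseudocount added to both groups cannot turn a sign. Only centred folds and folds from the other 2 tables could change a sign, and only the q settings a call. Of the 180 values 11 moved by over 1.5 times. With a pseudocount of 1 FPKM, Myoc went to log2 folds of -0.83 for GluN1 against WT and 0.55 for GluN1Cre against GluN1, and Lum to 0.21, -0.14 and 0.08 in the 3 comparisons. With folds from the other 2 tables, Ogn went to 0.37 for GluN1 against WT and 0.16 for GluN1Cre against GluN1. The other 4 had main log2 folds of at most 0.01 in size (Slc22a6 and Slc6a13). Slc6a13 lost its call for GluN1 against WT at q under 0.05. Slc22a6 turned to a log2 fold of -0.00156 for GluN1Cre against GluN1 with folds from the other 2 tables, which follows from a value near 0.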

Other observations

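Of the tested models within 200 kb of the 10 genes, 4 of 77 were called in GluN1 against WT (5.19% against 2.52% of all tested models), 1 of 76 in GluN1Cre against GluN1 (1.32% against 0.689%) and 1 of 74 in GluN1Cre against WT (1.35% against 0.841%). A model near more than one of the 10 genes is counted for each. In GluN1 against WT, neighbours called were Tuba8, an alpha-tubulin gene 65.7 kb from Slc6a13 (8.19 to 11.5 FPKM), Gm10754, 71.4 kb from Lum and counted for Dcn as well (2.07 to 1.37 FPKM, while Lum and Dcn had positive folds), and Grin1 beside Ptgds. In both comparisons with GluN1Cre, Grin1 was the neighbour called. None of the 5 tested models around Adamts2 and none of the 6 or 7 around Myoc was called by Cuffdiff in any comparison. An unnamed model 0.333 kb from Adamts2, chosen after its values were seen, had 0.188 FPKM in GluN1 and 0.296 FPKM in GluN1Cre. Its log2 fold was 0.65, with q = 0.928 in the authors' deposited table, and the median log2 fold of the 5 models there was 0.04. Aqp9, chosen after its values were seen, is a water and glycerol channel gene 47.5 kb from Aldh1a2; it had 0.434 FPKM in WT and 0.634 FPKM in GluN1 (log2 fold 0.55, with q = 0.324 in the authors' deposited table).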
